A study of Mus musculus with 9 samples.

Results

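The 42 genes described here encode the machinery that copies DNA before a cell divides. They were taken by gene symbol from the deposited count table, in which all 42 were found among 49671 genes. The study asked what VPAC2, the receptor for vasoactive intestinal peptide encoded by Vipr2, does in the growth of pancreatic cancer cells. The cells were Panc02, which derive from a ductal adenocarcinoma of the mouse pancreas, and their poly(A) RNA gave 9 libraries in 3 groups of 3. The parental group was the unedited line, with a wild type genotype label. KO_1E7 was 1 clone obtained with CRISPR-Cas9 and labelled a VPAC2 knockout. CRISPR_1G2 was 1 further clone from the same editing, labelled CRISPR-wild type, although the study's design text counts both clones as knockout cells. All groups were grown alike in DMEM with 10% fetal bovine serum and received no treatment. Each edited group is 1 clone, so a difference between groups and a difference between clones cannot be told apart.

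DNA replication begins in G1, when the origin recognition complex, with Cdc6 and Cdt1, loads the Mcm2-7 helicase onto origins. In S phase the kinase Cdc7, together with Cdc45, the GINS complex and Mcm10, switches the helicase on. Primase and polymerase alpha lay down primers, the clamp loader places the sliding clamp Pcna, and polymerases epsilon and delta extend the strands. Many of these genes are targets of E2F transcription factors and are transcribed mostly around the entry into S phase, so in a tumour line their mRNAs are commonly read as a sign of how many cells are cycling. In bulk libraries such as these, fewer cells in S phase and less mRNA in each cell cannot be told apart.

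Each library held between 27898705 and 51878289 gene counts. For Vipr2 the parental libraries gave 6, 3 and 12 counts, those of KO_1E7 1, 2 and 1, and those of CRISPR_1G2 1, 13 and 12, too few to check the labels with. Krt8, Krt18, Krt19 and Sox9, which mark duct cells, were detected in every library, and 9 duct markers summed to between 882 and 2100 CPM per library, a CPM value being a gene's counts scaled to the size of its library. Sums of acinar markers stayed between 1.16 and 13.2 CPM, of immune markers between 2.82 and 13.7 CPM and of fibroblast markers between 43.9 and 150 CPM. Those of endothelial markers stayed between 0.298 and 1.83 CPM and of erythroid markers between 0.82 and 1.95 CPM. Prss1, a defining acinar gene, was at 0 throughout. Cela1, another acinar marker, was at 2.08, 2.68 and 2.14 CPM in parental and at 13.1, 7.37 and 12 CPM in KO_1E7. In CRISPR_1G2 it was at 1.09, 2.11 and 1.01 CPM, so every KO_1E7 library was above every other library. In each group the deposited names of replicates 1 and 2 carried a date and that of replicate 3 the letters NSG, which the labels do not explain. CT010467.1 took 15.3% of the gene counts of parental 3 and between 0.465% and 1.04% of those of the other libraries.

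The replication genes were well measured, and all 42 passed the expression filter that left 15766 genes for testing. To compare genes, CPM values, with library sizes adjusted by TMM (edgeR's trimmed mean of M-values), were divided by the length of the deposited gene model in kilobases. On that scale the highest mean levels over the 9 libraries were those of Rrm2 (172 CPM per kb), the regulated subunit of ribonucleotide reductase, and of Pcna (155 CPM per kb), the sliding clamp. The helicase subunits Mcm3 (113 CPM per kb) and Mcm5 (93.4 CPM per kb) came next. The lowest were Gins2 (6.27 CPM per kb) and Gins3 (7.71 CPM per kb) of the GINS complex, Orc1 (6.66 CPM per kb) of the origin recognition complex and the primase subunit Prim2 (7.79 CPM per kb). Genes whose products act in 1 complex were therefore not at 1 level: among the 6 helicase subunits the mean ran from 47 CPM per kb in Mcm2 to 113 in Mcm3, and in the GINS complex from 6.27 in Gins2 to 23.3 in Gins4.

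Parental 3 and CRISPR_1G2 3 had low levels of most replication genes. Summed over the 42 genes, the level was 4950, 5800 and 3510 CPM in parental 1, 2 and 3, then 5960, 4980 and 6160 CPM in KO_1E7 1, 2 and 3, and 5370, 5050 and 3900 CPM in CRISPR_1G2 1, 2 and 3. Parental 3 and CRISPR_1G2 3, both NSG-named, lay below the other 7 libraries, whereas the NSG-named library of KO_1E7 had the highest sum of all. Relative to each gene's own mean over the libraries, the median gene stood at -0.51 on the log2 scale in parental 3 and at -0.32 in CRISPR_1G2 3, and between -0.04 and 0.23 in the other libraries. In parental 3, 39 of the 42 genes were under their own mean, in CRISPR_1G2 3, 33, and in KO_1E7 3, 5.

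**Figure D1:**
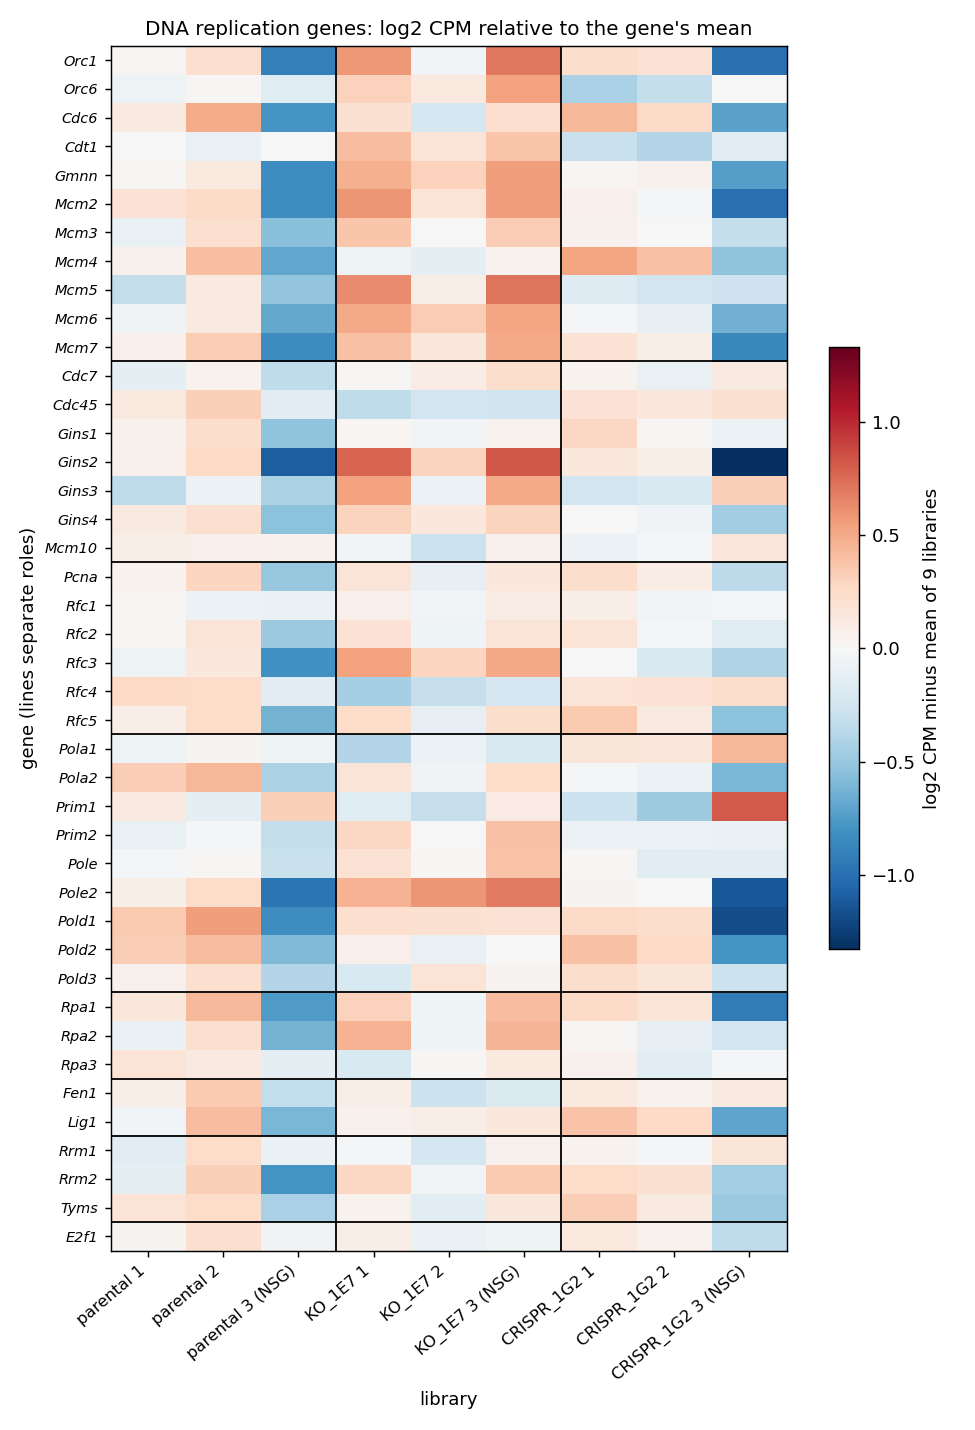
Level of each of the 42 replication genes (rows, grouped by role) in each library (columns), as log2 CPM minus the gene's mean over the 9 libraries. Blue fills most of the columns of parental 3 and CRISPR_1G2 3, where 39 and 33 genes lie under their own mean, and KO_1E7 3 is mostly red.

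Because the letters NSG mark 1 library in each group, each NSG-named library was compared with the 2 dated libraries of its own group, in a fit chosen after the data were seen. The spread in that fit comes from the 3 pairs of dated libraries alone, and each NSG-named library, alone in its arm, is assumed to vary as they do. Each call therefore says that 1 library differed from 2 others by more than dated libraries differ from each other, and has no replicate of the NSG-named side. By a chi-square per gene over all counts, dated libraries of a group differed from each other by 47.4 in parental, 68.5 in KO_1E7 and 8.37 in CRISPR_1G2, and from the NSG-named one by 691 and 767, by 20 and 55.8, and by 249 and 259. Such a value is a mean, to which a single gene of many counts can add much. CT010467.1, at 15.3% of the gene counts of parental 3 and 0.465% and 0.69% of parental 1 and 2, is included. How much of 691 and 767 it makes up is not given. In parental, 21 of the 42 genes were lower in the NSG-named library and 0 were higher by edgeR's adjusted p, where 10.8% of all tested genes were lower and 6.65% higher. The median log2 difference of the 42 genes was -0.66, against -0.02 over all tested genes, and 40 of the 42 were negative. In CRISPR_1G2, 16 were lower and 1 was higher, where 14.9% and 14.6% of all tested genes were, and the median was -0.38 against -0.01. In KO_1E7, 0 passed in either direction by edgeR, as did 0% of all tested genes. There, 0 of the 42 had an unadjusted p below 0.05, and 0 passed with DESeq2, which called 0.0127% of all tested genes higher and 0.0381% lower. Its median was 0.16 against -0.01, and 39 of the 42 differences were positive. DESeq2 called 0 higher and 24 lower in parental (7.80% and 13.9% of all tested genes) and 1 higher and 18 lower in CRISPR_1G2 (15.0% and 15.8%). By order alone, the NSG-named library was below both dated ones in 38 genes of the set in parental, 28 in CRISPR_1G2 and 1 in KO_1E7, where 43.0%, 45.2% and 28.9% of all tested genes were. It was above both in 2, 10 and 26 genes, where 42.2%, 44.2% and 29.1% were. The 21 genes of parental became 8 without parental 2 and 7 without CRISPR_1G2 1 or CRISPR_1G2 2, and the 16 of CRISPR_1G2 became 4 without CRISPR_1G2 1 and 8 without CRISPR_1G2 2. Each of these leaves 1 dated pair fewer to estimate the spread, and the part of that in the change was not tested. Shares of all tested genes with a library left out are not given, so whether the set or all genes changed cannot be told. The 1 higher gene of CRISPR_1G2 became 3 without KO_1E7 1 or KO_1E7 2.

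All 16 genes lower in CRISPR_1G2 3 were among the 21 lower in parental 3, that is 100% of the first list and 76.2% of the second. Over all tested genes the shared 1406 genes made up 59.7% and 82.5% of the corresponding lists. The 16 were Orc1, Cdc6, Gmnn, Mcm2, Mcm4, Mcm6, Mcm7, Gins2, Rfc5, Pola2, Pole2, Pold1, Pold2, Rpa1, Lig1 and Tyms, and Gins1, Gins4, Pcna, Rfc3 and Rrm2 were lower in parental 3 alone by this threshold. Whether the difference between NSG-named and dated libraries itself varied between the groups was tested by an interaction term. It passed for 7 of the 42 genes (16.7%), where 4.73% of all tested genes passed, and these were Gmnn, Mcm7, Gins2, Pole2, Pold1, Pold2 and Rpa1. Without CRISPR_1G2 1 or without CRISPR_1G2 2 the number was 0, and without KO_1E7 1 it was 18. With DESeq2 it was 18, where 15.4% of all tested genes passed. A single term for the letters NSG over all 3 groups found 0 of the 42 genes in either direction by edgeR, as did 0% of all tested genes. With that term 14 of the 42 had an unadjusted p below 0.05, where 33.3% of all tested genes did. By that count, which pools both directions, the set was at the common share. By direction it was not: 34 of the 42 differences were negative, where 50.1% of all tested genes were positive. The median was -0.30 against 0 over all tested genes. DESeq2 found 1 higher and 4 lower, where it called 8.46% and 10.5%. Without KO_1E7 3 the single term gave 1 higher and 24 lower by edgeR. For this and for the interaction test, shares of all tested genes with a library left out are not given. Whether the set or all genes changed cannot be told from these counts.

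**Figure D2:**
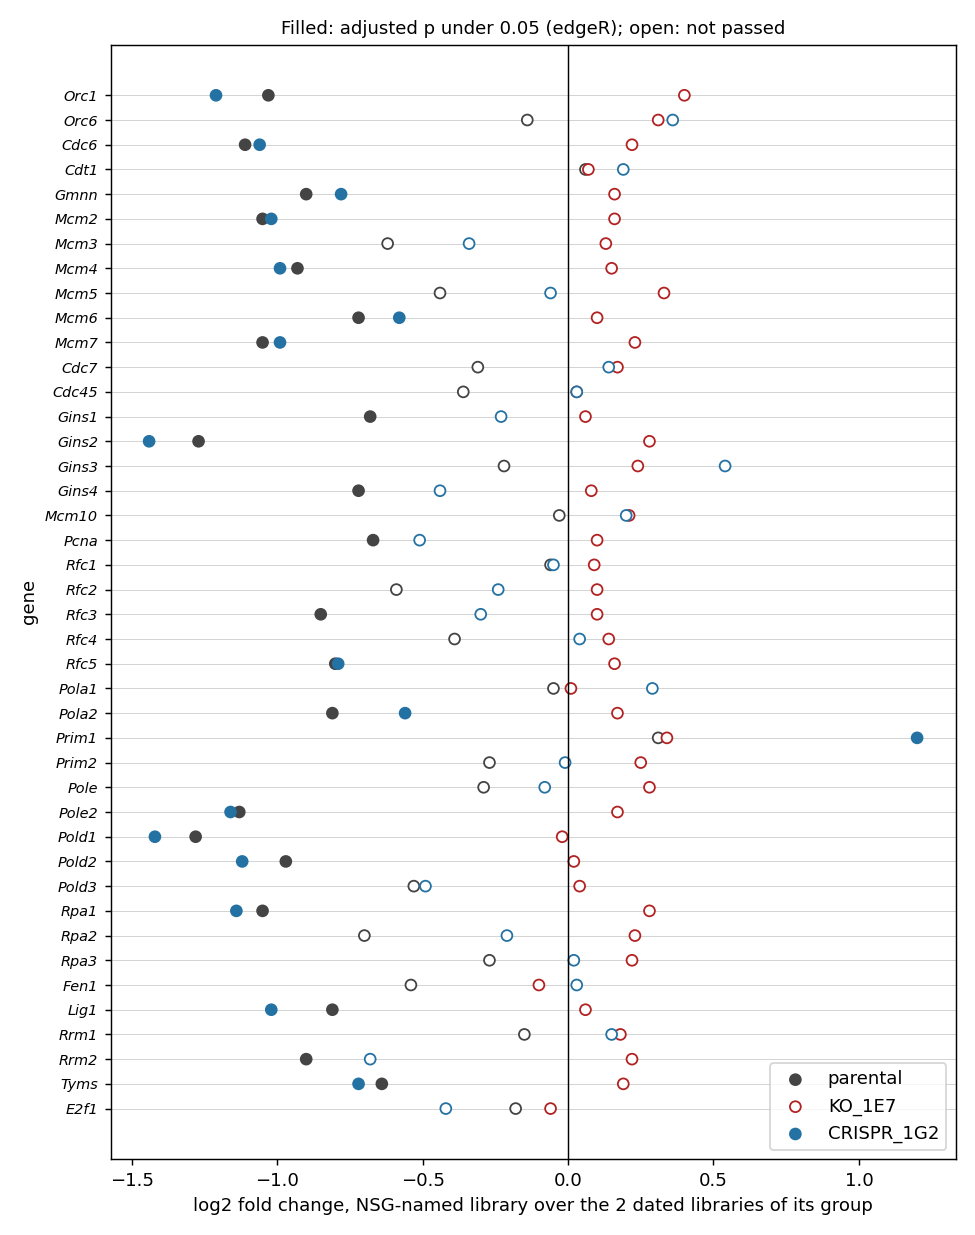
Log2 fold change of each replication gene in the NSG-named library over the 2 dated libraries of its group, for parental (grey), KO_1E7 (red) and CRISPR_1G2 (blue), filled where edgeR's adjusted p was under 0.05. Grey and blue points reach -1.28 and -1.44, and the red points lie between -0.10 and 0.40.

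Targets of p53, the tumour suppressor that halts the cell cycle on damage, moved in the same libraries. Of 17 tested targets 13 were higher in parental 3 than in the dated parental libraries, 15 were higher in CRISPR_1G2 3, and 0 passed in KO_1E7 3, where 6.65%, 14.6% and 0% of all tested genes were higher. Their summed level was 1730, 1480 and 3880 CPM in the parental libraries, 1550, 1600 and 1560 CPM in the KO_1E7 libraries and 2030, 2410 and 8050 CPM in the CRISPR_1G2 libraries. Cdkn1a, which encodes the kinase inhibitor p21, was at 43.2, 31.8 and 189 CPM in parental, at 40.5, 44.2 and 34.1 CPM in KO_1E7 and at 64.6, 72.9 and 480 CPM in CRISPR_1G2. Mdm2, which encodes the ubiquitin ligase of p53, was at 792, 646 and 1860 CPM, at 759, 838 and 761 CPM and at 872, 1170 and 3910 CPM in the same order. Duct markers summed to 1340 CPM in parental 3 and 882 CPM in CRISPR_1G2 3, and to between 1280 and 2100 CPM in the other libraries. The 2 libraries with the highest levels of p53 targets were the 2 with the lowest levels of replication genes, and the part of p53 targets, of duct markers or of CT010467.1 in this was not tested.

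Among the genes that load the helicase, most that differed did so in the 2 low libraries. Orc1, the ATP-binding subunit of the origin recognition complex, was at 22, 25.2 and 11.5 CPM in parental 1, 2 and 3, at 32.3, 21.1 and 35.2 CPM in KO_1E7 and at 25.5, 24.8 and 10.9 CPM in CRISPR_1G2. Cdc6, the loading ATPase, was at 80.2, 104 and 42.7 CPM, at 84.6, 62.6 and 85.8 CPM and at 99.8, 87.7 and 45 CPM in the same order. For both genes parental 3 and CRISPR_1G2 3 were the lowest of the 9 libraries, and the other 7 overlapped between groups. Orc1 was lower by a log2 difference of -1.03 ± 0.27 (SE, adjusted p = 0.0395) in parental 3 and of -1.21 ± 0.27 (adjusted p = 0.0167) in CRISPR_1G2 3 than in the dated libraries.

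Gmnn encodes geminin, the protein that binds Cdt1 and stops origins from being licensed again. It was at 41.4, 44.6 and 23 CPM in parental, at 56.6, 50.6 and 60 CPM in KO_1E7 and at 41.7, 42.4 and 24.5 CPM in CRISPR_1G2. Every KO_1E7 library was above every other library, and the NSG-named library was low in the other groups only, with log2 differences of -0.90 ± 0.14 (adjusted p = 0.0117) in parental, 0.16 ± 0.13 (adjusted p = 1) in KO_1E7 and -0.78 ± 0.14 (adjusted p = 0.00833) in CRISPR_1G2. Cdt1, the partner of geminin, did not follow it. Its level was 110, 103 and 111 CPM in parental, 147, 124 and 142 CPM in KO_1E7 and 89.6, 84 and 99.1 CPM in CRISPR_1G2. The groups did not overlap, in the order CRISPR_1G2, parental, KO_1E7, and no NSG-named library was low.

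The Mcm2-7 helicase subunits were summed to 1700, 2040 and 1110 CPM in parental, 2390, 1890 and 2440 CPM in KO_1E7 and 1850, 1730 and 1200 CPM in CRISPR_1G2. Mcm7 was at 239, 288 and 128 CPM, at 298, 253 and 323 CPM and at 260, 240 and 126 CPM. Mcm2 was at 353, 368 and 174 CPM, at 464, 349 and 454 CPM and at 323, 305 and 155 CPM in the same order. In both genes the 2 low libraries stood at about the same level, far under their dated partners, and Mcm4 and Mcm6 had the same order of libraries within parental and CRISPR_1G2. For Mcm2 the log2 difference was -1.05 ± 0.19 (adjusted p = 0.0155) in parental and -1.02 ± 0.19 (adjusted p = 0.00909) in CRISPR_1G2. Mcm3 and Mcm5 were the subunits that passed in neither group. Mcm3, the subunit with the highest level per length, was at 390, 485 and 285 CPM, at 540, 418 and 525 CPM and at 437, 416 and 336 CPM. Mcm5 was at 286, 389 and 249 CPM in parental, at 555, 377 and 586 CPM in KO_1E7 and at 318, 300 and 296 CPM in CRISPR_1G2, so that its 3 CRISPR_1G2 libraries lay close together.

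**Figure D3:**
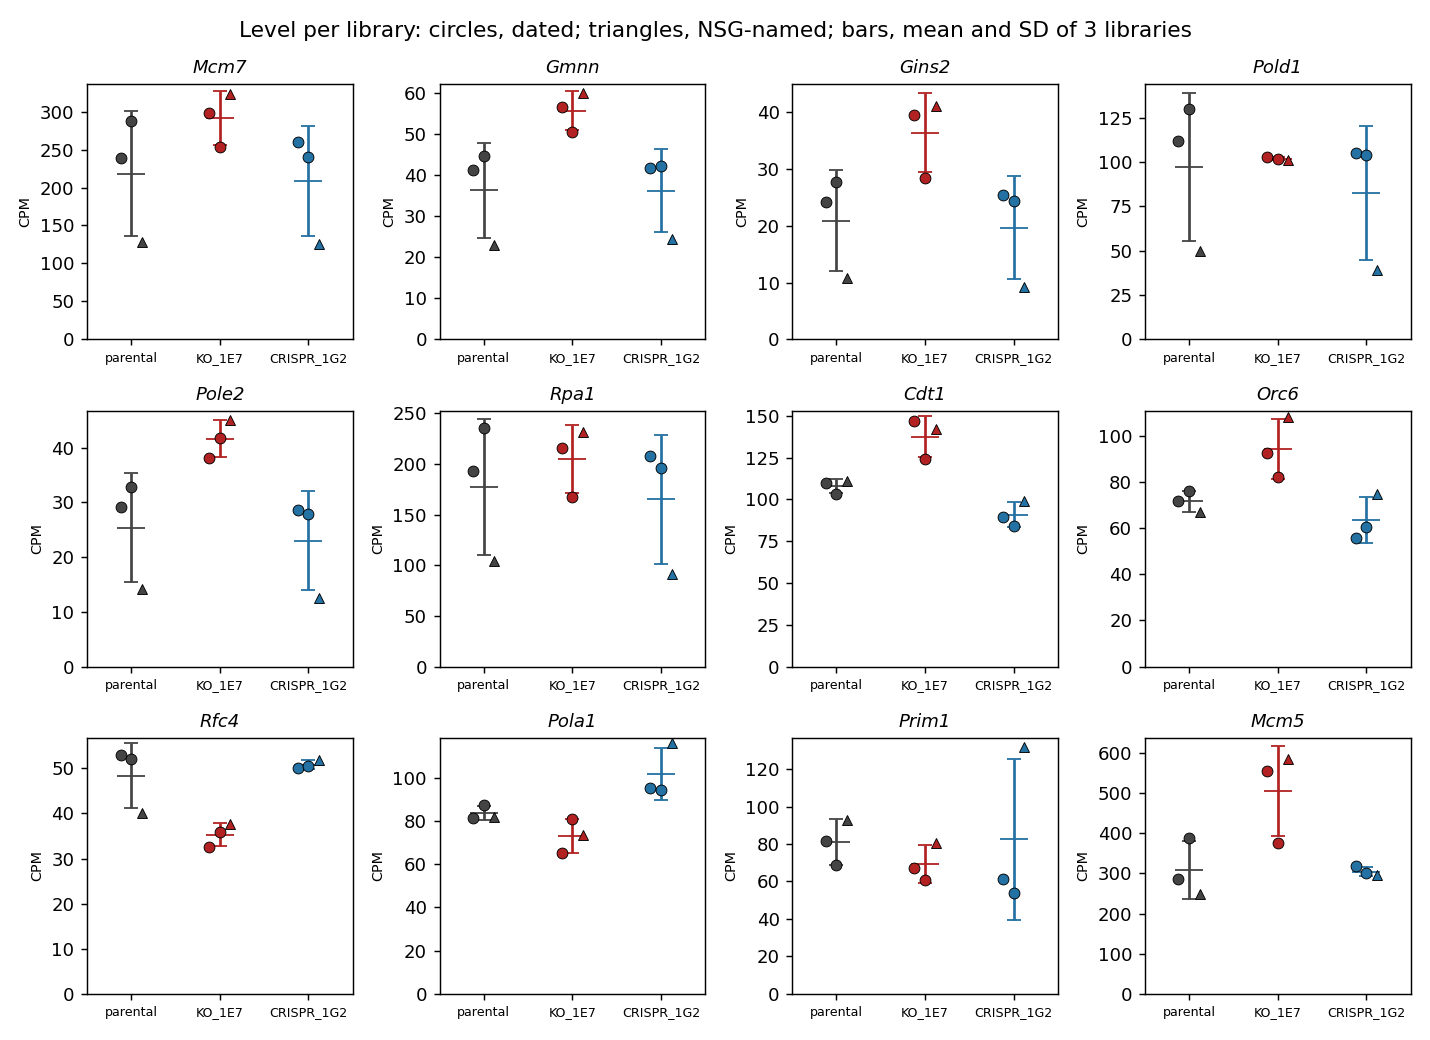
CPM per library of 12 replication genes in the 3 groups, with circles for dated and triangles for NSG-named libraries, and bars for the mean and SD of 3 libraries. In Mcm7, Gmnn, Gins2, Pold1, Pole2 and Rpa1 the triangles of parental and CRISPR_1G2 lie far below the circles, and in Cdt1, Orc6, Rfc4 and Mcm5 they do not.

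The promoters of the replication genes, whether or not they were lower in the NSG-named libraries, were read for the motif of E2F factors, since these are the best known regulators of the family. In the RefSeq promoter table of GRCm38.p6, which holds 300 bases from 250 before to 50 after each start, 34 of the 42 genes matched with 40 promoters. The 7-base E2F motif TTTNNCG, in which each N is C or G, was found on either strand in 19 of the 40 (47.5%), against 6.70% of all 32851 promoters. The CCAAT box, which many cell cycle promoters carry, was in 55.0% against 37.4%, and the CHR motif TTTGAA was in 17.5% against 17.9%. E2F motifs can overlap each other, and the median GC content of the 40 promoters was 61.3% against 52.7%. The motif was in 9 of 17 promoters (52.9%) of genes lower in both NSG-named libraries and in 9 of 20 (45.0%) of genes lower in neither. Some genes have several promoters, and by gene it was in 9 of 13 and in 9 of 18. The 250 bases before the start of Mcm6, which was lower in both, and of Mcm5, which was lower in neither, are shown because the motif is in both, with E2F motifs and CCAAT boxes of either strand in capitals. That of Mcm6 is on the minus strand at chr1:128359706-128359955 and that of Mcm5 on the plus strand at chr8:75109259-75109508.

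Mcm6: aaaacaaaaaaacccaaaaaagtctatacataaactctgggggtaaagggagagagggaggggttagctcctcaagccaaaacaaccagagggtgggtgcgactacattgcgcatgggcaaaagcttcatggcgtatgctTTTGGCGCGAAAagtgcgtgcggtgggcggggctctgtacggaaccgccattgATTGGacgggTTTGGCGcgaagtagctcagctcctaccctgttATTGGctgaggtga
Mcm5: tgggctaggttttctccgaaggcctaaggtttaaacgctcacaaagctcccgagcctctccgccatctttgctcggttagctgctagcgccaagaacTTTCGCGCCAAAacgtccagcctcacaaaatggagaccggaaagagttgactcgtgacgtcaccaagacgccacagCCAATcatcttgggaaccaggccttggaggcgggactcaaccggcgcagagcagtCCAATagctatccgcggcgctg

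In both, 2 E2F motifs overlap on opposite strands, and Mcm6 holds a further motif nearer its start. Sites of 29 bases around the motif in other promoters show the same letters in both sets, with the motif in capitals. The first 4 are from genes lower in both NSG-named libraries and the last 3 from genes lower in neither. They lie on GRCm38.p6 at chr4:108579417-108579445 (plus strand) for Orc1, chr5:138171850-138171878 (minus) for Mcm7, chr11:98908003-98908031 (plus) for Cdc6, chr12:69228162-69228190 (minus) for Pole2, chr8:122568001-122568029 (plus) for Cdt1, chr1:20820275-20820303 (minus) for Mcm3 and chrX:93632275-93632303 (minus) for Pola1.

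Orc1: tcggttagtggCGCGAAAagttttctcct
Mcm7: gggtgacgacgTTTCGCGccaatttcggt
Cdc6: ccggtggagagCGGGAAAtcgcctggggt
Pole2: gtcggcggtggCGCCAAAtcgcgaacatg
Cdt1: gaggctgaagcCGCGAAAgttgcgcggaa
Mcm3: aacttccgtggCGGGAAAacttgggaagt
Pola1: tcatcacagggCGCCAAAtgcactcccgc

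Of the 7 genes that switch the helicase on, Gins2 was lower in both parental 3 and CRISPR_1G2 3, Gins1 and Gins4 passed in parental 3 alone, and Gins3, Cdc7, Cdc45 and Mcm10 passed in neither. Gins2 was at 24.2, 27.8 and 10.8 CPM in parental, at 39.6, 28.4 and 41.2 CPM in KO_1E7 and at 25.5, 24.4 and 9.19 CPM in CRISPR_1G2, and each KO_1E7 library was above every other library. The log2 difference of its NSG-named library was -1.27 ± 0.23 (adjusted p = 0.0161) in parental and -1.44 ± 0.24 (adjusted p = 0.00606) in CRISPR_1G2. Its gene model shares 2758 exon bases with Gse1 on the other strand, and counts without strand cannot tell the 2 genes apart there. Gins4, the GINS gene with the highest level per length, was at 33.6, 35.7 and 21.1 CPM, at 37.9, 34 and 38 CPM and at 30.8, 29.8 and 22.3 CPM. Gins3 was at 16, 19.2 and 15.1 CPM, at 29.4, 19.3 and 28.8 CPM and at 17.1, 17.7 and 25.3 CPM, so the NSG-named library was the highest in CRISPR_1G2. Mcm10, which helps the active helicase move, stayed between 71.6 and 96.7 CPM over the 9 libraries, with 0 calls in any comparison by edgeR. Cdc45, the helicase cofactor, was at 54.1, 61.6 and 45 CPM in parental, at 39.2, 41.4 and 41.2 CPM in KO_1E7 and at 56.5, 54.6 and 56.9 CPM in CRISPR_1G2. All of its KO_1E7 libraries were under all others.

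The clamp Pcna, which holds polymerases on DNA, was at 377, 445 and 258 CPM in parental, at 411, 339 and 403 CPM in KO_1E7 and at 429, 392 and 288 CPM in CRISPR_1G2. Parental 3 and CRISPR_1G2 3 were the lowest, and the other libraries of the groups overlapped. Of the 5 subunits of the clamp loader, Rfc1 lay between 96 and 110 CPM in all libraries, whereas Rfc3 was at 44.7, 51.5 and 26.7 CPM, at 67.6, 56.7 and 66.7 CPM and at 46.8, 40.4 and 35.3 CPM. Rfc3 was higher in each KO_1E7 library than in any other. Rfc4 had the opposite order, at 53, 52.1 and 40.1 CPM in parental, at 32.5, 35.8 and 37.6 CPM in KO_1E7 and at 50.2, 50.5 and 51.9 CPM in CRISPR_1G2. Rfc2 and Rfc5 stayed between 47.9 and 77.2 CPM and between 43.1 and 85.1 CPM.

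Among the polymerases, the subunits of 1 enzyme did not share 1 pattern. Pold1, the catalytic subunit of polymerase delta, was at 112, 130 and 49.9 CPM in parental, at 103, 102 and 101 CPM in KO_1E7 and at 105, 104 and 39.2 CPM in CRISPR_1G2. The 3 KO_1E7 libraries were nearly equal, and the NSG-named libraries of the other groups were the lowest of all, with log2 differences of -1.28 ± 0.14 (adjusted p = 0.00733) and -1.42 ± 0.14 (adjusted p = 0.00181). Pold2, the accessory subunit with the highest level per length in this set, was at 106, 113 and 55.9 CPM, at 88.6, 78.9 and 84.8 CPM and at 111, 101 and 48.6 CPM. Pole2, the small subunit of polymerase epsilon, was at 29.2, 32.8 and 14.1 CPM, at 38.1, 41.8 and 45 CPM and at 28.5, 27.9 and 12.6 CPM, and each KO_1E7 library was above all others. Its catalytic partner Pole was at 97.4, 100 and 80.7 CPM, at 113, 101 and 130 CPM and at 101, 89.5 and 89.8 CPM, with a log2 difference in the NSG-named library of -0.29 ± 0.14 (adjusted p = 0.188) in parental and -0.08 ± 0.14 (adjusted p = 0.690) in CRISPR_1G2.

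In polymerase alpha and primase the pattern split within 1 complex. The catalytic subunit Pola1 was at 81.6, 87.5 and 81.9 CPM in parental, at 65.2, 80.9 and 73.6 CPM in KO_1E7 and at 95.3, 94.4 and 116 CPM in CRISPR_1G2, and its groups did not overlap. The accessory subunit Pola2 was at 86, 92.9 and 50.9 CPM, at 76.9, 66.1 and 80.7 CPM and at 67.4, 64.6 and 44.8 CPM. Prim1, the catalytic subunit of primase, was at 81.4, 68.8 and 93 CPM, at 66.9, 60.5 and 80.5 CPM and at 61.3, 54 and 132 CPM. It was the 1 replication gene higher in an NSG-named library, with a log2 difference of 1.20 ± 0.15 (adjusted p = 0.00294) in CRISPR_1G2, while in parental it was 0.31 ± 0.16 (adjusted p = 0.208). Its partner Prim2 stayed between 36.7 and 60.1 CPM, and Pold3 between 36.5 and 56.5 CPM.

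Rpa1, the large subunit of the protein that coats single-stranded DNA, was at 193, 236 and 104 CPM in parental, at 216, 167 and 232 CPM in KO_1E7 and at 208, 196 and 91.7 CPM in CRISPR_1G2. Its NSG-named libraries were the lowest in parental (-1.05 ± 0.20, adjusted p = 0.0185) and in CRISPR_1G2 (-1.14 ± 0.20, adjusted p = 0.00807). The small subunit Rpa3 lay between 29.6 and 38.7 CPM and Rpa2 between 31.6 and 67.4 CPM, and both passed in neither group. Lig1, which seals Okazaki fragments, was at 120, 164 and 81.1 CPM, at 129, 131 and 136 CPM and at 160, 149 and 76.1 CPM. Fen1, the flap nuclease that trims them, lay between 26.7 and 42.6 CPM and passed in neither group, and its gene model shares 1909 exon bases with Gm10143.

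Of the nucleotide supply genes, Rrm2 was at 427, 577 and 270 CPM in parental, at 561, 453 and 590 CPM in KO_1E7 and at 551, 534 and 338 CPM in CRISPR_1G2. Rrm1, the constant subunit of the same reductase, was at 260, 341 and 271 CPM, at 284, 247 and 301 CPM and at 298, 286 and 323 CPM, and its lowest library was KO_1E7 2. The NSG-named difference of Rrm2 was -0.90 ± 0.22 (adjusted p = 0.0337) in parental and -0.68 ± 0.22 (adjusted p = 0.0517) in CRISPR_1G2, and that of Rrm1 was -0.15 ± 0.19 (adjusted p = 0.615) and 0.15 ± 0.18 (adjusted p = 0.584). Tyms, thymidylate synthase, lay between 39.3 and 69.5 CPM with its lowest values in CRISPR_1G2 3 and parental 3. E2f1, the transcription factor of the set, was at 50.3, 57.1 and 47.5 CPM, at 52.1, 46.2 and 47.2 CPM and at 53.6, 50.6 and 38.8 CPM, and passed in no comparison.

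The labelled knockout was first compared with the parental line over all libraries. By edgeR 0 of the 42 genes were higher and 0 lower in KO_1E7, where 2.54% of all tested genes were higher and 2.87% lower. An unadjusted p below 0.05 was found for 9 of the 42 genes, as for 23.7% of all tested genes. DESeq2 called Cdt1 and Mcm5 higher and Cdc45 and Rfc4 lower, where its shares over all tested genes were 6.92% and 8.04%. The median log2 fold change of the 42 genes was 0.18 against -0.03 over all tested genes, and 29 were positive. The largest differences that did not pass were those of Gins2 (0.80 ± 0.44, adjusted p = 0.307), Mcm5 (0.72 ± 0.21, adjusted p = 0.0832), Pole2 (0.71 ± 0.36, adjusted p = 0.276) and Rfc3 (0.64 ± 0.23, adjusted p = 0.143). In 10 genes all KO_1E7 libraries were above all parental ones and in 3 all were below, 23.8% and 7.14% of the set, where the shares over all tested genes were 17.2% and 17.3%.

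The level of parental 3 touches these values directly. Without parental 3 and CRISPR_1G2 3, the median log2 fold change of the 42 genes was -0.01. Then 5 genes, Cdt1, Gmnn, Mcm6, Rfc3 and Pole2, were higher in KO_1E7 and 3, Cdc45, Rfc4 and Pold2, were lower, where 9.72% and 11.3% of all tested genes were. With dated libraries only, 0 were higher and Cdc45 and Rfc4 were lower, where 5.27% and 5.76% of all tested genes were, and the median was -0.05. Of the genes called without parental 3 and CRISPR_1G2 3, Gmnn, Mcm6, Rfc3 and Pole2, which were higher, and Pold2, which was lower, were among the 21 genes that were lower in parental 3.

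CRISPR_1G2 and parental had 0 genes of the set different by edgeR, where 0% of all tested genes were higher and 0.254% lower. An unadjusted p below 0.05 was found for 0 of them, where 7.73% of all tested genes had one. DESeq2 called 0, where 0.438% and 1.05% of all tested genes passed. The libraries of Pola1 in CRISPR_1G2 were all above those of parental and the libraries of Cdt1 all below, 1 gene each way, where 6.64% and 6.45% of all tested genes did not overlap. Without parental 3 and CRISPR_1G2 3, 0 of the set passed, where 0.0253% of all tested genes were higher and 0.240% lower. The median was 0.02, as it was over all tested genes. The largest differences were those of Pola2 (-0.38 ± 0.24, adjusted p = 0.813), Pola1 (0.28 ± 0.13, adjusted p = 0.664), Gins3 (0.25 ± 0.22, adjusted p = 0.884), Cdt1 (-0.24 ± 0.12, adjusted p = 0.695) and Pold1 (-0.23 ± 0.42, adjusted p = 0.968).

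KO_1E7 and CRISPR_1G2, the 2 edited clones, differed in 4 genes of the set by edgeR. Orc6, a small subunit of the origin recognition complex, was at 55.6, 60.4 and 74.7 CPM in CRISPR_1G2 and at 92.5, 81.9 and 108 CPM in KO_1E7, with parental between them at 71.8, 75.8 and 66.9 CPM. It was 0.57 ± 0.15 higher on the log2 scale in KO_1E7 (adjusted p = 0.0451). Cdt1, the loading factor, was at 138 ± 11.7 CPM in KO_1E7 and at 90.9 ± 7.64 CPM in CRISPR_1G2 (mean ± SD, n = 3), and was 0.60 ± 0.12 higher (adjusted p = 0.0150). Rfc4 was at 35.3 ± 2.59 and 50.8 ± 0.916 CPM and was lower in KO_1E7 (-0.53 ± 0.14, adjusted p = 0.0397), and Pola1 was at 73.2 ± 7.88 and 102 ± 12 CPM and was lower (-0.48 ± 0.13, adjusted p = 0.0475). The 2 higher and 2 lower genes, each 4.76% of the set, stood beside 5.71% and 7.03% of all tested genes, so the set was not called more often than other genes. With DESeq2 4 were higher and 3 lower, where 9.69% and 11.7% of all tested genes were. All KO_1E7 libraries were above all CRISPR_1G2 ones in 12 genes and below them in 3, where the shares over all tested genes were 19.2% and 19.4%. Mcm5 (0.73 ± 0.21, adjusted p = 0.0538) and Cdc45 (-0.46 ± 0.13, adjusted p = 0.0523) came close. Cdt1 lost its call without KO_1E7 1, KO_1E7 3, CRISPR_1G2 1 or CRISPR_1G2 2 (adjusted p from 0.0566 to 0.0723), and Orc6 without any of these or without parental 1 or 2 (0.0606 to 0.166). Rfc4 lost its call without any 1 library but parental 3 (0.0571 to 0.156), and Pola1 without any 1 of the 9 (0.0577 to 0.175). Without parental 3 and CRISPR_1G2 3 together, 9 genes were higher (Orc6, Cdt1, Gmnn, Mcm2, Mcm5, Mcm6, Gins2, Rfc3 and Pole2) and 5 lower (Mcm4, Cdc45, Rfc4, Pola1 and Pold2), where 14.7% and 14.4% of all tested genes were.

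**Figure D4:**
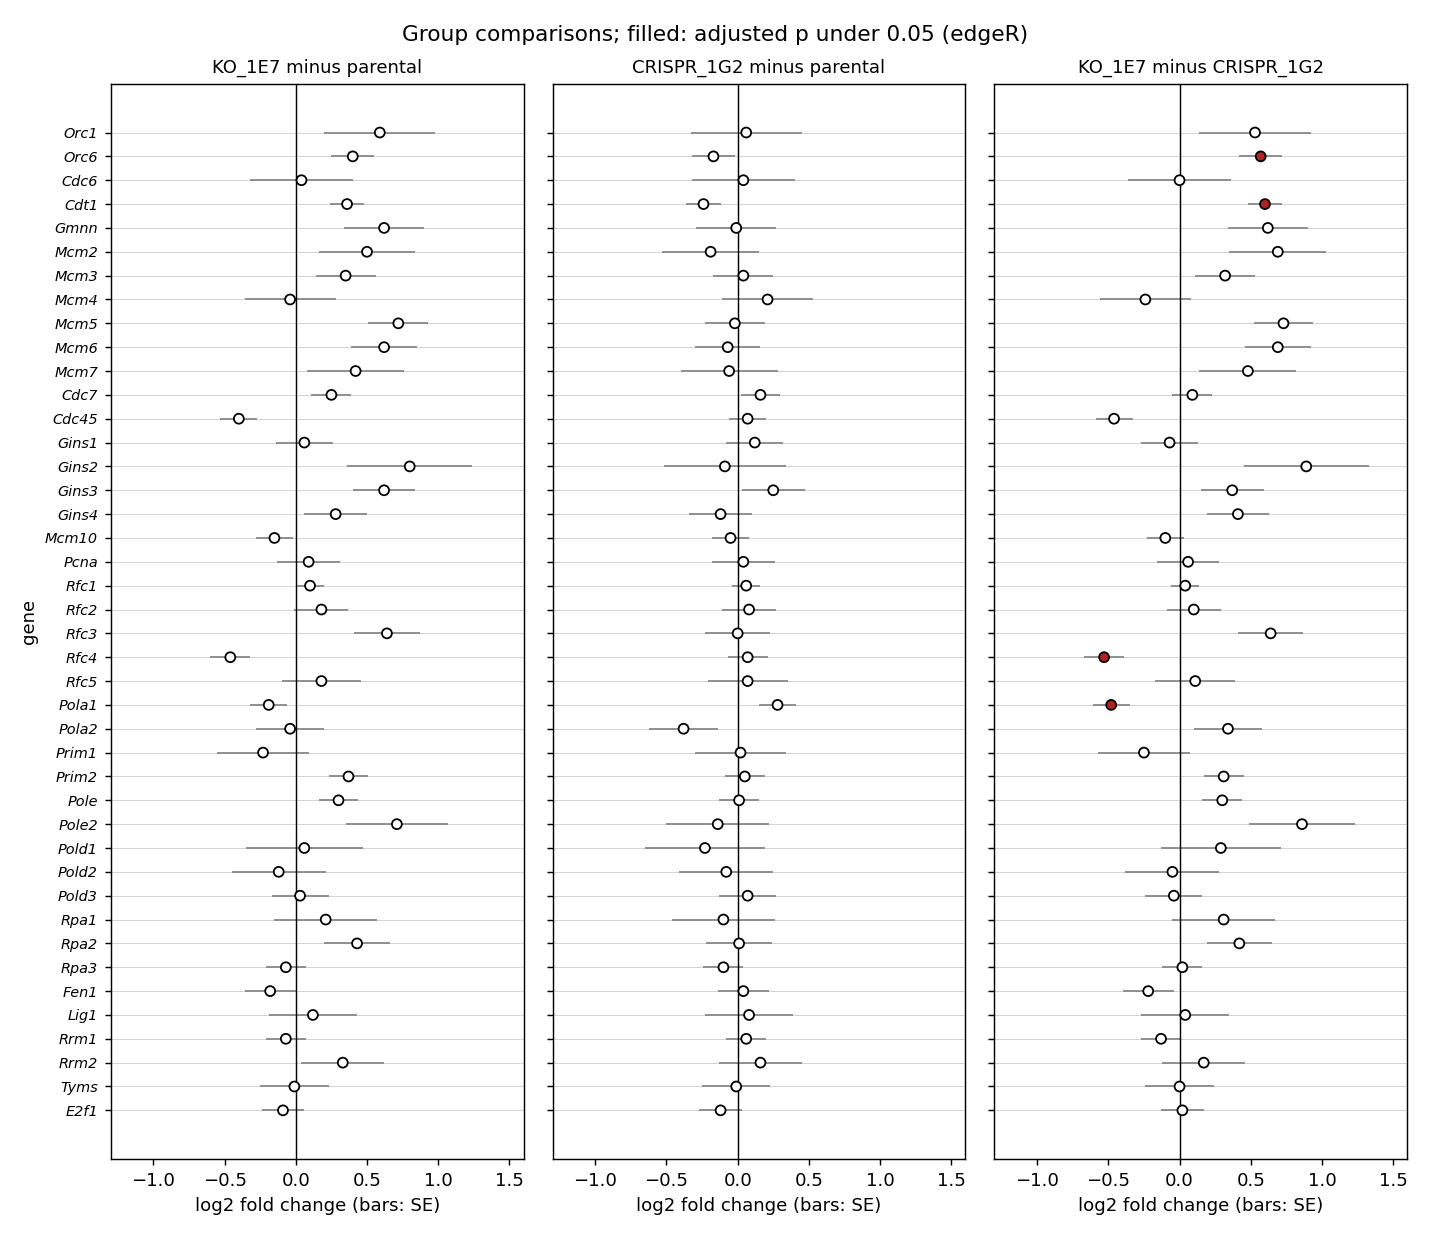
Log2 fold change and SE of each replication gene in the 3 group comparisons with all 9 libraries, filled where edgeR's adjusted p was under 0.05. The filled points are Orc6, Cdt1, Rfc4 and Pola1, all in KO_1E7 against CRISPR_1G2, and the middle panel lies between -0.38 and 0.28.

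The medians of the replication genes on chromosomes 8 and 16 lay in KO_1E7 in the direction of the other genes there, and those on chromosome 7 did not. On chromosome 8, the 892 tested genes had a median log2 fold change of 0.31 in KO_1E7 against parental and of 0.34 against CRISPR_1G2. The 6 replication genes there, Orc6, Cdt1, Mcm5, Gins2, Gins3 and Gins4, had medians of 0.51 and 0.58. On chromosome 16, the 459 tested genes had medians of -0.37 and -0.52, and Mcm4, Cdc45 and Rfc4 had -0.40 and -0.46. Mcm4 stood apart from its neighbours at -0.04 and -0.24, above the median of the chromosome by 0.34 and 0.27. On chromosome 7, the 1240 tested genes had medians of -0.45 and -0.53, but Pold1, Pold3, Lig1 and Rrm1 had 0.05 and 0. These 4 genes were above the median of their chromosome in both comparisons, and 0 of them passed the test.

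Of the genes called between the clones, Orc6 and Cdt1 are on chromosome 8, Rfc4 on 16 and Pola1 on X. Subtracting from each gene the median of its chromosome lowered the SD over the 42 genes from 0.32 to 0.22 in KO_1E7 against parental and from 0.36 to 0.26 in KO_1E7 against CRISPR_1G2. It raised the set's median to 0.30 and 0.27, with 35 and 37 of the 42 genes above their chromosome's median. In CRISPR_1G2 against parental the SD was 0.13 before and 0.12 after, and 15 genes were above. The comparisons share libraries, so these values are not independent of one another. All values by chromosome include the low NSG-named libraries of parental and CRISPR_1G2. Without those libraries the set's median in KO_1E7 against parental, before subtraction, was lower, as given above. Values after subtraction are not given without them, so their part in the set's position above the chromosome medians was not tested.

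**Figure D5:**
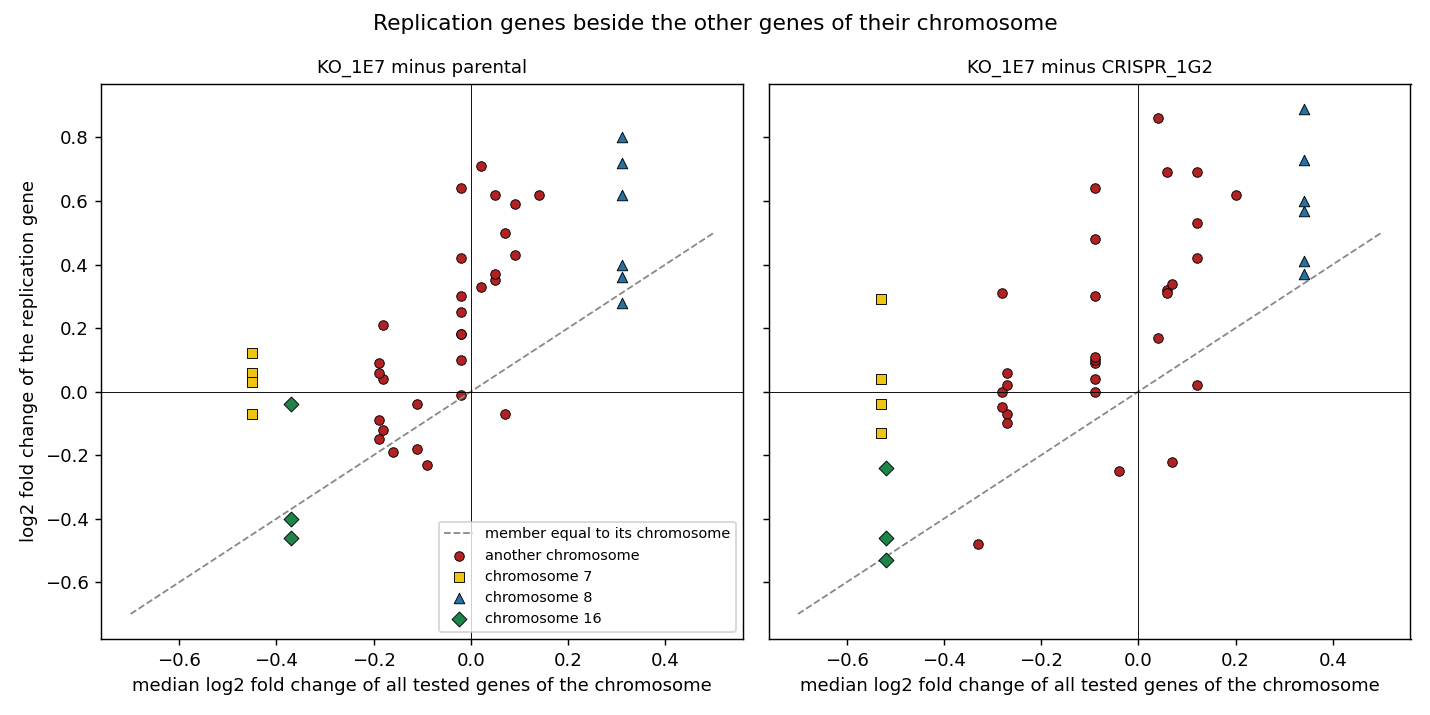
Log2 fold change of each replication gene against the median of all tested genes on its chromosome, in KO_1E7 against parental and against CRISPR_1G2, with the dashed line where both are equal. Genes of chromosome 8 (triangles) lie at the upper right, Cdc45 and Rfc4 of chromosome 16 (diamonds) at the lower left near the line, and the 4 genes of chromosome 7 (squares) above it.

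Other genes of the same pathway, from lists chosen with earlier results of these data known, gave few calls between KO_1E7 or CRISPR_1G2 and parental, and in parental 3 and CRISPR_1G2 3 the number of calls varied between the lists. Calls were also few among all tested genes, of which 2.54% were higher and 2.87% lower in KO_1E7 than in parental. In CRISPR_1G2 against parental the shares were 0% and 0.254%. Of 14 further origin and helicase genes, Orc3, an origin recognition subunit, was higher in KO_1E7 than in parental (0.51 ± 0.12, adjusted p = 0.0473), and Ticrr, which brings Cdc45 to the helicase, was lower (-0.55 ± 0.11, adjusted p = 0.0290). Ticrr stood at 44.5, 46.1 and 46.5 CPM in parental, at 30, 31.3 and 32.3 CPM in KO_1E7 and at 44.2, 49.3 and 49.4 CPM in CRISPR_1G2, with no overlap of KO_1E7. Of 12 fork protection and checkpoint genes 1 was higher, the checkpoint kinase gene Chek1, at 36.6, 34.1 and 25 CPM in parental, at 52.7, 48.5 and 58.8 CPM in KO_1E7 and at 27.1, 27.6 and 29.6 CPM in CRISPR_1G2. Of 11 further nucleotide supply genes 0 were higher and 2 lower, Dut, which removes dUTP, at 149 ± 0.58 CPM in KO_1E7 and 218 ± 13 CPM in parental, and Umps of pyrimidine synthesis, at 63.6 ± 5.82 and 110 ± 10.3 CPM (n = 3). Of 15 further polymerase, clamp loader and maturation genes, 10 replication-coupled chromatin genes and 26 regulators of the G1 to S transition, 0 passed in that comparison by edgeR, and in CRISPR_1G2 against parental 0 passed in any of these lists. Between the clones, Orc3, Timeless, Chek1 and Cdkn2c of these lists were higher in KO_1E7 than in CRISPR_1G2. Mcmbp, Ticrr, Rad1, Dut, Samhd1 and Umps were lower. There, 5.71% of all tested genes were higher and 7.03% lower.

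Counts of the same lists in parental 3 and CRISPR_1G2 3 are read beside all tested genes, of which 10.8% were lower and 6.65% higher in parental 3, and 14.9% lower and 14.6% higher in CRISPR_1G2 3. Of the 14 origin and helicase genes, 2 were lower and 0 higher in parental 3, and 1 was lower and 1 higher in CRISPR_1G2 3. Topbp1, which helps Cdc45 join the helicase, was the lower gene common to both (-0.82 ± 0.13, adjusted p = 0.0121, and -0.84 ± 0.13, adjusted p = 0.00527). Of the 12 fork protection and checkpoint genes, 4 were lower and 1 higher in parental 3, and 1 was lower and 1 higher in CRISPR_1G2 3. Of the 11 nucleotide supply genes, 3 were lower and 1 higher in parental 3, and 4 were lower and 3 higher in CRISPR_1G2 3.

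In parental 3, 6 of the 15 polymerase, clamp loader and maturation genes were lower and 1 was higher than in the dated libraries, and in CRISPR_1G2 3, 7 were lower and 1 higher. Chtf18, of the alternative clamp loader, was at 52, 62.7 and 23.6 CPM in parental, at 62.7, 46.1 and 60.6 CPM in KO_1E7 and at 55.4, 50.1 and 11 CPM in CRISPR_1G2. Dna2, the nuclease and helicase of fragment maturation, was at 25.6, 30.6 and 9.01 CPM, at 26, 20.8 and 32.7 CPM and at 26.4, 21.3 and 8.76 CPM. Both genes also passed the interaction test (adjusted p = 0.0259 and 0.0273). Of the 10 chromatin genes 5 were lower in each low library, among them Dnmt1, the maintenance methyltransferase (-0.69 ± 0.12, adjusted p = 0.0155, and -0.65 ± 0.12, adjusted p = 0.0101), and 0 and 1 were higher. Of the 26 G1 to S regulators 9 were lower and 3 higher in parental 3, and 7 were lower and 3 higher in CRISPR_1G2 3. Ccna2, the S phase cyclin, was at 263, 348 and 128 CPM, at 325, 277 and 319 CPM and at 303, 290 and 128 CPM, and E2f8, a repressor of the E2F family, was at 144, 187 and 37.4 CPM, at 77.6, 118 and 84.9 CPM and at 228, 216 and 41.2 CPM. E2f8 was lowest in the same 2 libraries as the replication genes. E2f1 was lowest of all in CRISPR_1G2 3 (log2 difference -0.42 ± 0.15, adjusted p = 0.0700), and in parental 3 it lay within the range of the KO_1E7 libraries. In KO_1E7 3, 0 genes of these lists passed by edgeR. Of 7 tested quiescence and growth arrest genes, Gas1 was higher in KO_1E7 than in parental, 1 was higher and 1 lower in parental 3, and 2 were higher and 1 lower in CRISPR_1G2 3.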

How the data were processed

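Bulk poly(A) RNA of 9 libraries was measured, 3 in each of 3 groups taken from the sample titles. The authors deposited unnormalized read counts for each gene. The submitters' processing notes name bcl2fastq 2.17 and, for alignment to GRCm38, STAR 2.5.2b, and per the same notes featureCounts (Subread 1.5.2) made the counts. The annotation release and strand setting are not given in the sources used here, and 12 of the 42 genes share exon bases with another gene. The per-sample tables and the series table differed in 0 cells, 0 columns of per-sample values were left unused, and 92 spike-in controls (0.344% to 0.82% of counts) were left out. Gene counts per library ranged from 27898705 to 51878289. Libraries of a group differed by a chi-square per gene of 8.37 to 767, far above sampling noise, so all were kept. Nothing says that replicates were separate cultures, so the spread behind the p-values is that of these libraries and could be technical.

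edgeR 4.0.16 in R 4.3.3 tested the counts by its robust quasi-likelihood F-test, with TMM scaling, edgeR's expression filter by group (15766 genes) and all 9 libraries in 1 fit, which leaves 6 residual degrees of freedom. NSG-named libraries were compared by group with 3 residual degrees of freedom. P-values were adjusted by Benjamini-Hochberg over all tested genes and called at 0.05. Values ± are SE for log2 fold changes and SD for CPM. Alternatives were DESeq2 1.42.0, other size factors and filters, a replicate block, a term for the letters NSG and left-out libraries. The replicate numbers come from the sample titles. Deviations of same-numbered libraries correlated at 0.24, 0.47 and 0.65 between parental and CRISPR_1G2. Parental 2 correlated more with CRISPR_1G2 1 (0.54), which has the same date in its deposited name, than with CRISPR_1G2 2. The numbers therefore do not establish pairs, and the main fit has no term for them. The fits were also run on simulated data, but the settings and outcome of that run are not given here. It therefore does not show how often the fits err at the spread of these libraries. Genes given in every library were those called between groups, the highest per kilobase of each role and the 5 with the largest fold change of each comparison, and further ones, such as Orc1, Cdc6, Mcm7, Prim1, Pole and Cdc45, were chosen after their values were seen. The members and lists were chosen with earlier results of these data known. Promoters are RefSeq's, on GRCm38.p6, and Gins1, Gins2, Gins4, Gmnn, Mcm4, Pole, Prim2 and Rfc2 had none in the table.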

Additional observations from a re-analysis of the deposited data

Results flagged for a closer look

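In 7 replication genes the difference between the NSG-named library and the dated ones varied between the groups by edgeR's interaction test, each being lower in parental 3 and CRISPR_1G2 3. Pold1, the catalytic subunit of polymerase delta (interaction adjusted p = 0.0249), had log2 differences of -1.28 in parental, -0.02 in KO_1E7 and -1.42 in CRISPR_1G2. Pold2, its accessory subunit (adjusted p = 0.039), had -0.97, 0.02 and -1.12. Pole2 of polymerase epsilon (adjusted p = 0.0288) had -1.13, 0.17 and -1.16. Gins2 of the GINS complex (adjusted p = 0.0409) had -1.27, 0.28 and -1.44. Gmnn, the licensing inhibitor (adjusted p = 0.0417), had -0.90, 0.16 and -0.78, and Mcm7 of the helicase (adjusted p = 0.0419) had -1.05, 0.23 and -0.99. Rpa1, which coats single strands (adjusted p = 0.0462), had -1.05, 0.28 and -1.14. All 7 adjusted p-values lay near the threshold. The 1 library named NSG in each group sets these values, and 0 of the 7 passed without CRISPR_1G2 1 or without CRISPR_1G2 2.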

How the results depend on the processing

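In KO_1E7 against parental, 0 higher and 0 lower genes became 2 and 2 with DESeq2, 5 and 3 without parental 3 and CRISPR_1G2 3, 0 and 2 with dated libraries only, and 1 and 0 with a term for the letters NSG. In KO_1E7 against CRISPR_1G2, the 2 higher genes became 4 with DESeq2, 5 with dated libraries only, 1 with no filter, 6 with the NSG term and 9 without parental 3 and CRISPR_1G2 3, and leaving out 1 library gave from 0 to 5. The 2 lower genes became 1 with RLE factors, 0 with no filter and 5 without parental 3 and CRISPR_1G2 3, and 0 to 2 with 1 library left out. For a single NSG term, 0 higher and 0 lower became 1 and 4 with DESeq2 and 1 and 1 with no filter, and leaving out 1 library gave 0 to 1 higher and 0 to 24 lower. By group, leaving out 1 library gave 7 to 27 lower genes in parental, and 4 to 21 lower and 1 to 3 higher in CRISPR_1G2. The 7 genes that differed between groups became 18 with DESeq2 and 22 with no filter, and ranged from 0 to 18 with 1 library left out. The causes of these changes were not tested. Shares of all tested genes are not given for RLE factors, for no filter or for 1 library left out, so those counts cannot be set beside them. In CRISPR_1G2 against parental, where no gene passed, Gins3 turned to -0.03 without parental 3 and CRISPR_1G2 3 and to -0.03 with dated libraries only, and Pold1 ranged from -0.55 to 0.11 with 1 library left out, being 0.03 without parental 2 and 0.11 without CRISPR_1G2 3. RLE or upper-quartile factors shifted the median of all genes by at most 0.05 on the log2 scale.

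Same-numbered libraries correlated at 0, 0.06 and 0.15 between parental and KO_1E7 and at -0.05, 0.13 and 0.07 between KO_1E7 and CRISPR_1G2. The main fit took the numbers as pairs in no comparison. With the replicate block, KO_1E7 against parental had 0 higher and 0 lower genes and KO_1E7 against CRISPR_1G2 3 higher, Mcm6 being added (0.73, adjusted p = 0.0401), and 2 lower. In CRISPR_1G2 against parental, the block left 0 higher and 0 lower and changed no call. With 3 libraries a group, of which parental 3 and CRISPR_1G2 3 stand apart, a difference had to be several times its SE to pass: Pola1 passed at -0.48 ± 0.13 and Mcm5 did not at 0.73 ± 0.21 (KO_1E7 against CRISPR_1G2).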

Other observations

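The ratio between partners of 1 complex changed in the same libraries, in 3 pairs chosen after their values were seen and given with no test. On the scale of CPM per kilobase, Cdt1 over its inhibitor Gmnn was 1.23, 1.08 and 2.24 in parental 1, 2 and 3, 1.21, 1.15 and 1.11 in the KO_1E7 libraries and 1, 0.925 and 1.89 in the CRISPR_1G2 libraries. Prim1 of primase over Pola2 of polymerase alpha, which act as 1 enzyme, was 0.702, 0.55 and 1.36, then 0.645, 0.679 and 0.741, and 0.675, 0.62 and 2.19. Rrm1 over Rrm2 of ribonucleotide reductase was 0.153, 0.149 and 0.253, then 0.128, 0.137 and 0.128, and 0.136, 0.135 and 0.241. In all 3 pairs parental 3 and CRISPR_1G2 3 had the 2 highest ratios.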
